A study of Mus musculus with 8 samples.

Results

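Dorsomorphin was present in 4 of the 8 arrays and absent from the other 4, in resting and in stimulated CD4+ T cells alike. The comparison described here sets those 4 arrays against the 4 with the solvent DMSO, with stimulation held as a covariate, and asks which transcripts moved the same way whatever the activation state. It uses all 8 arrays of the series. The cells were primary CD4+ T cells from BALB/c mice without a named genetic change, kept for 1 h with or without plate-bound anti-CD3 and soluble anti-CD28 antibodies. Dorsomorphin at 4 µM or DMSO was then added for 6 h. The groups are control cells (unstimulated, DMSO), dorsomorphin (unstimulated), stimulated (DMSO) and stimulated with dorsomorphin, with 2 arrays each. The sources used here do not say whether the replicates were separate mice or cultures, or whether cells were pooled, so any p-value here speaks of array-to-array spread alone, and that spread may be technical.

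Bone morphogenetic proteins (BMPs) signal through type I receptor kinases such as ALK2, ALK3 and ALK6, which phosphorylate SMAD1, SMAD5 and SMAD8, and the Id genes are classical targets of these SMADs. Dorsomorphin, also called compound C, blocks those receptor kinases. It also blocks AMPK, the kinase that senses low cellular energy, restrains mTORC1 and favours fatty acid oxidation, and it is known to inhibit further kinases. In T cells, CD3 and CD28 signals pass through LCK, ZAP70, calcineurin and NFAT, and through NF-kappaB and MAP kinases.

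Each array carried 45101 Affymetrix probe sets, and the deposited signals had been brought to a common trimmed mean of 500. Median signals per array were 45.4 to 74.5, and in each group the replicate 2 array had the lower one. For the spiked-in control Dap, the log2 signal at the 3' end minus that at the 5' end was 1.51 to 1.65 on replicate 1 arrays and 2.69 to 3.10 on replicate 2 arrays, so the numbers set the arrays apart across all groups. For each of 18193 genes the brightest probe set on average was taken. The 40th percentile of the values, log2 5.22, is called the floor here, and 13983 genes above it on at least 2 arrays were tested. Values below are log2 signals, and a change is the mean with dorsomorphin minus the mean with DMSO, ± SE. No detection calls were used, so a group with both arrays under the floor gives only a bound. The T cell markers Cd3d and Cd2 lay between log2 11.75 and 14.45 on every array, and Cd4 between 7.97 and 11.02. Cd3e lay between 9.62 and 12.51, Cd3g between 9.74 and 13.79, Thy1 between 9.94 and 12.35, and Cd5 between 10.58 and 13.69. Of these markers, Cd2, Cd3e, Cd3g and Cd5 were lower with dorsomorphin, as described below. Markers of other cells were also measured: the summed signal of 23 myeloid and dendritic cell markers was 15299 to 22563 in control cells, 7532 to 8314 with dorsomorphin, 7686 to 10407 in stimulated cells, and 8356 to 8966 in stimulated cells with dorsomorphin. In these bulk samples, fewer cells of a type and less RNA per cell cannot be told apart.

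Across both activation states, 656 genes were higher with dorsomorphin, 4.69% of those tested, and 1597 were lower, 11.4% (limma, Benjamini-Hochberg adjusted p under 0.05). Every list count below is to be read beside these shares. A further requirement was set for genes moved in each state: both dorsomorphin arrays had to lie on the same side of both DMSO arrays among the unstimulated and again among the stimulated arrays. This left 655 higher (4.68%) and 1582 lower (11.3%). Of these, 629 and 1478 also had all 4 dorsomorphin arrays on 1 side of all 4 DMSO arrays. Among all tested genes that held for 1326 upward (9.48%) and 2118 downward (15.1%). Separation of the arrays in the called genes below is thus largely set by how they were picked. At a 2-fold change in both states, with values under the floor raised to it, 185 of the higher and 915 of the lower genes remained. At 4-fold in both states 7 and 141 did. The median size of the change was 1.17 among the higher and 1.64 among the lower genes, which were chosen by passing the test. The median of the signed changes over all tested genes, another measure, was -0.09. Leaving out any 1 array lowered the count of higher genes to between 210 (without stimulated with dorsomorphin, replicate 2) and 415 (without dorsomorphin, replicate 1). The lower genes numbered 870 and 832 without control replicates 1 and 2, 999 without dorsomorphin replicate 2, 859 without stimulated replicate 1 and 919 without stimulated with dorsomorphin replicate 2. With cyclic loess between arrays, 1007 were higher and 1219 lower, so that the higher share of the changed genes was 45.2% instead of 29.1%, and the median change of all genes moved from -0.09 to 0.01.

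The changes in the separate states share no arrays. In unstimulated cells 268 genes were higher (1.92%) and 1557 lower (11.1%), and in stimulated cells 1358 were higher (9.71%) and 1738 lower (12.4%). Of the higher genes, 138 were called in both states, which is 51.5% of the unstimulated list and 10.2% of the stimulated list. Of the lower genes, 630 were called in both, 40.5% and 36.2% of the lists. Opposite calls were 5 among the genes higher in unstimulated cells and 41 among those lower there. Over all 13983 genes, 60.7% changed with the same sign in both states, and the Pearson correlation of the changes was 0.34, across genes that share arrays and scaling. The calls over both states include 104 higher and 223 lower genes that neither state alone called.

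**Figure D1:**
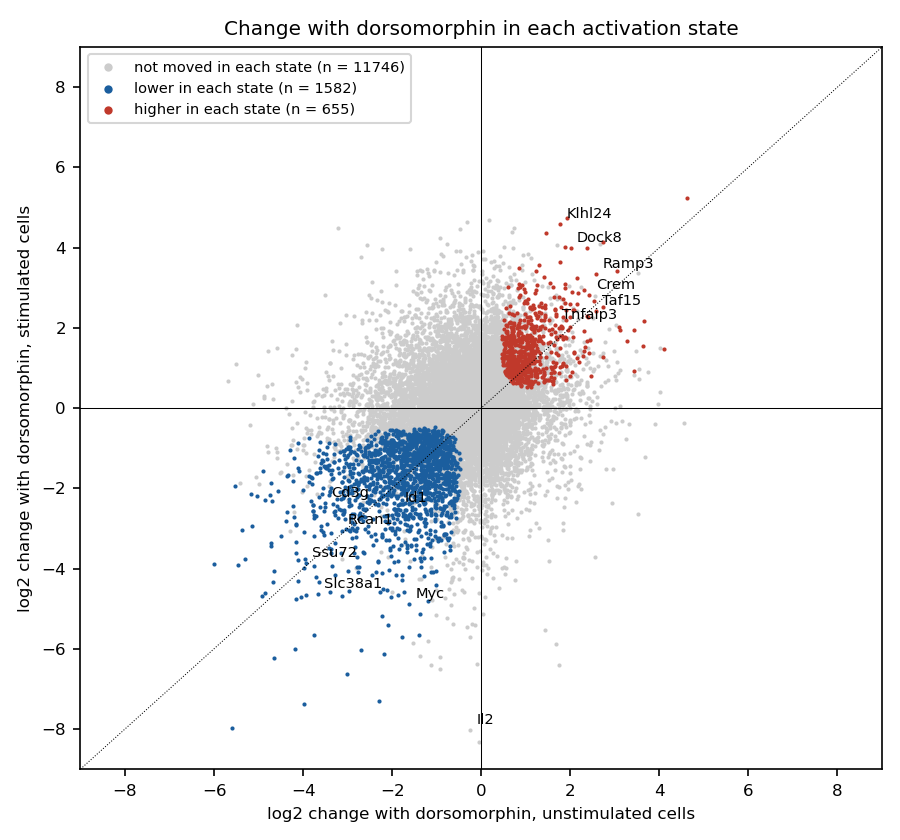
Change with dorsomorphin in unstimulated cells (horizontal axis, log2) against that in stimulated cells (vertical axis, log2), 1 point per tested gene, with 655 genes higher (red) and 1582 lower (blue) in each state and all others in grey. The dotted line marks equal changes; red points fill the upper right and blue points the lower left by the way they were chosen, and Il2 lies near 0 on the horizontal axis and at -8.02 on the vertical.

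The 14 transcripts that fell most in both states included Ssu72 and Ints6, of RNA polymerase II processing. Slc38a1 and Mthfd1l, of amino acid and one-carbon supply, were also among them. No theme among the 14 was tested. Ssu72, which encodes a phosphatase of the RNA polymerase II tail, was at log2 12.33 and 12.45 on the control arrays, 8.66 and 8.25 with dorsomorphin, 12.17 and 12.52 in stimulated cells, and 8.49 and 8.47 in stimulated cells with dorsomorphin. All 4 dorsomorphin arrays lay below all 4 DMSO arrays, and the change was -3.90 ± 0.20 (adjusted p = 0.00204). That value belongs to the brightest of 4 probe sets. The other 3 had changes of 0.26, 0.33 and 0.96 that did not pass, and the mean over probe sets was not called.

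Slc38a1, a glutamine transporter gene, was at 11.04 and 11.14 in control cells and 12.54 and 12.53 in stimulated cells. With dorsomorphin it was at 7.66 and 7.19 unstimulated, and at 7.66 and 8.15 stimulated. The levels with DMSO differed between states while those with dorsomorphin nearly met, and the change was -4.15 ± 0.28 (adjusted p = 0.00270). Its dimmer probe set had a change of -0.94 that did not pass.

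Nabp1, which encodes a single-stranded DNA binding protein, was at 11.00 and 11.04 in control cells, 7.68 and 6.84 with dorsomorphin, 12.41 on both stimulated arrays, and 7.96 and 9.0 in stimulated cells with dorsomorphin. The groups with and without the inhibitor did not overlap in either state, as the choice of genes required, and the change was -3.84 ± 0.30 (adjusted p = 0.00285). All 5 of its probe sets fell, by 3.26 to 4.28.

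Ints6, a subunit gene of the Integrator complex, was at 10.64 and 10.88 in control cells, 7.63 and 7.33 with dorsomorphin, 10.91 and 11.10 in stimulated cells, and 7.27 and 8.04 in stimulated cells with dorsomorphin. The fall was nearly the same in the states, 3.28 and 3.36 log2 units in size. Nlrc5, the transactivator of MHC class I genes, changed by -3.44 ± 0.29. Mthfd1l, which makes formate in mitochondria, changed by -3.53 ± 0.30, and Endog, a mitochondrial nuclease gene, by -3.03 ± 0.29. Dido1, which encodes a PHD finger protein, changed by -3.95 ± 0.32 on its brightest probe set, while another of its probe sets rose by 2.01, and the mean over probe sets was not called.

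Several of the largest falls ended under the floor, so that only bounds can be given. Abcc4, a transporter gene for cyclic nucleotides and drugs, was at least 14.4-fold lower in unstimulated cells, where both dorsomorphin arrays were under the floor, and 16-fold lower in stimulated cells. Eif2ak4, which encodes the amino acid sensing kinase GCN2, was at least 8.10-fold lower in unstimulated and at least 9.40-fold lower in stimulated cells. Eri3, an exoribonuclease family gene, was at least 9.43-fold lower in unstimulated cells, and Macrod1, an ADP-ribose hydrolase gene, at least 8.59-fold lower in stimulated cells. Cryl1, a dehydrogenase gene, changed by -4.21 ± 0.75, with dorsomorphin arrays as far apart as 6.16 and 2.56 in stimulated cells. Macrod1 was called in neither state alone (limma adjusted p = 0.0557 unstimulated and 0.0604 stimulated). Cryl1 was not called in unstimulated cells alone (limma adjusted p = 0.0697). The 14 largest falls, and the 14 largest rises described next, all stayed called when any 1 array was left out.

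Transcripts that rose most in both states did so by smaller amounts. Ramp3, which encodes a partner of calcitonin-family receptors, was at 10.01 and 9.54 in control cells, 12.05 and 12.68 with dorsomorphin, 9.03 and 7.80 in stimulated cells, and 11.84 and 11.67 in stimulated cells with dorsomorphin. No array with the inhibitor overlapped those without it, and the change was 2.96 ± 0.35 (adjusted p = 0.00494). Crem, a cyclic AMP responsive transcription factor gene, was at 11.86 on both control arrays, 14.05 and 14.53 with dorsomorphin, 11.74 and 10.29 in stimulated cells, and 13.80 and 13.88 in stimulated cells with dorsomorphin. The stimulated DMSO arrays were the most spread, and the change was 2.63 ± 0.34 (adjusted p = 0.00601). A second Crem probe set also rose, by 1.53, and its other 2 had changes of 0.04 and -0.12 that did not pass.

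Taf15, an RNA-binding protein gene, rose by 2.49 ± 0.27, and Zeb1, which encodes a zinc finger repressor, by 2.49 ± 0.35. Ubxn7, a cofactor gene of the p97 segregase, rose by 1.92 ± 0.26 and Zbed6, a transcription factor gene derived from a transposon, by 2.06 ± 0.34. Srp54b, which encodes a subunit of the signal recognition particle, rose by 1.94 ± 0.26, though mice carry near-identical copies of this gene that the probe set may also detect. Cdadc1, a cytidine deaminase family gene, rose by 2.13 ± 0.20 on its brightest probe set, and none of its other 6 passed. Of the 14 largest rises, Cdadc1, Dock8, Gpatch2, Tmco3 and Vti1a lost their call on the mean of their probe sets, and Vti1a was called in the opposite direction there (-1.35). The values at the edge of the choice were close: the smaller of the changes in the states was 1.82 for the last rise taken and also for the next one, and -2.98 and -2.96 for the falls.

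**Figure D2:**
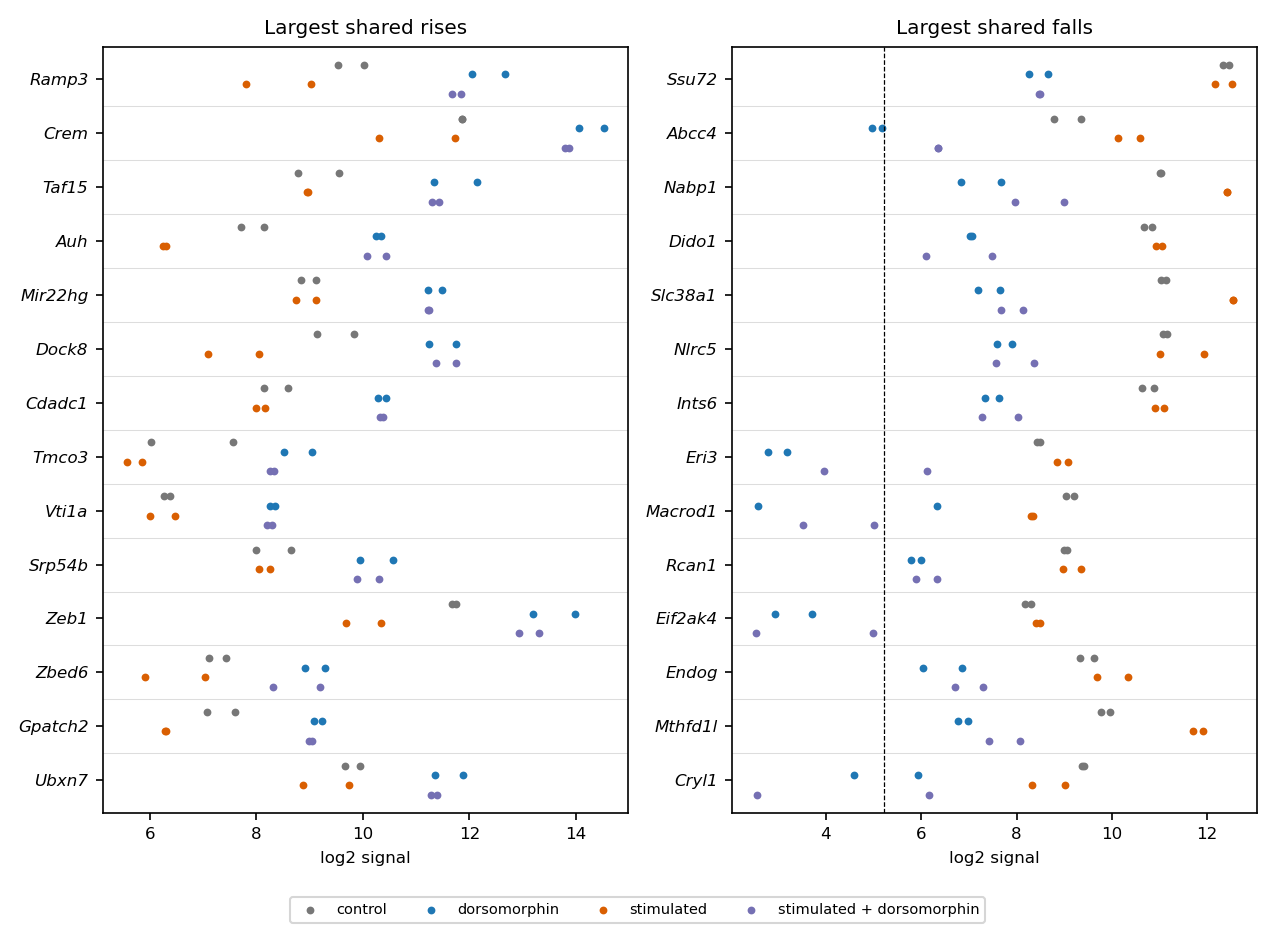
Log2 signal (horizontal axis) on each of the 8 arrays for the 14 largest shared rises (left) and the 14 largest shared falls (right), 1 point per array, coloured by group, with the floor of 5.22 as a dashed line. Blue and violet points (dorsomorphin) lie to the right of grey and orange points (DMSO) on the left and to their left on the right, as the choice of genes requires, and at least 1 dorsomorphin array of Eri3, Eif2ak4, Macrod1, Cryl1 and Abcc4 lies under the floor.

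A closer question is for which genes the change was alike in the states, meaning that the whole 95% interval of the difference lay within 1 log2 unit either way. The intervals were wide, with a median half-width of 1.28, and 625 of all tested genes met this (4.47%), among them 79 of the higher and 81 of the lower genes. A gene outside this group is not thereby shown to differ. Mir22hg, the host transcript of the microRNA miR-22, was at 9.11 and 8.84 in control cells, 11.21 and 11.49 with dorsomorphin, 9.12 and 8.73 in stimulated cells, and 11.25 and 11.22 in stimulated cells with dorsomorphin. The levels were close with and without stimulation, and the changes of 2.38 and 2.31 differed by -0.07 (interval -0.94 to 0.80). The array measured the host transcript, not the mature arms. Those arms are shown because the host gives rise to them, from RefSeq on GRCm38.p6 chromosome 11, plus strand, with the seed (bases 2 to 8) in capitals. They lie at chr11:75463734-75463755 and chr11:75463772-75463793.
mmu-miR-22-5p: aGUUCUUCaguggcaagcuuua
mmu-miR-22-3p: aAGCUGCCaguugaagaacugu

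Among alike rises, Rab11fip1, an endosome recycling gene, rose by 1.91 ± 0.19 and Pwwp2a, which encodes a chromatin protein that binds histone H2A.Z, by 1.71 ± 0.18, with a difference between the states of 0.00 (interval -0.72 to 0.73). Neither was called on the mean of its probe sets. Capg, an actin capping protein gene that is abundant in regulatory T cells, was at 11.56 and 11.53 in control cells, 9.35 and 8.93 with dorsomorphin, 12.26 and 12.01 in stimulated cells, and 9.80 and 9.81 in stimulated cells with dorsomorphin. Its change was -2.37 ± 0.20 (adjusted p = 0.00292), with a difference between the states of 0.08 (interval -0.75 to 0.91). Lrrc14 changed by -2.37 ± 0.18.

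Rcan1, which encodes a calcineurin regulator and is a classical NFAT target, was the alike fall with the next-smallest adjusted p after Ssu72. It was at 9.06 and 9.0 in control cells, 5.99 and 5.79 with dorsomorphin, 8.98 and 9.35 in stimulated cells, and 5.88 and 6.33 in stimulated cells with dorsomorphin. Its level with DMSO was the same with and without stimulation, and the change was -3.10 ± 0.21 (adjusted p = 0.00270; difference between the states 0.08, interval -0.84 to 1.00). RefSeq lists 2 start sites, and both windows are shown, since no table used here ties the probe set to either. The dimmer of its 2 probe sets had a change of -2.04 that did not pass. Each gives the 250 bases before the start on GRCm38.p6, minus strand, at chr16:92400079-92400328 and chr16:92466170-92466419, with motif matches in capitals.
Rcan1, first window: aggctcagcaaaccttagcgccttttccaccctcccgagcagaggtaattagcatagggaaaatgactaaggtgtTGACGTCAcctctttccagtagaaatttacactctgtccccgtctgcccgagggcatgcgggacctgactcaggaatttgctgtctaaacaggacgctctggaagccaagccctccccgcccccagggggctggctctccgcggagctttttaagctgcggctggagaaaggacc
Rcan1, second window: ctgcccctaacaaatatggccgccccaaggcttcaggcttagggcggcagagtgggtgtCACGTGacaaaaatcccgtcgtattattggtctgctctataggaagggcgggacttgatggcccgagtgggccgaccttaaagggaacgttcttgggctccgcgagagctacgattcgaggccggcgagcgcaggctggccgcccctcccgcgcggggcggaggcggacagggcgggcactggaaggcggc
The first window holds TGACGTCA, the cyclic AMP response element, starting at position -175, and the second holds CACGTG, the E-box, at -191.

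Among the genes of the pathways that dorsomorphin is best known to block, BMP-SMAD targets and AMPK genes included rises and falls. The list of BMP, activin and TGF-beta receptors and SMADs had 2 rises and 0 falls. Of 9 tested BMP-SMAD target genes, Bambi rose, Id1 and Id3 fell and 6 did not pass, beside 4.69% higher and 11.4% lower over all tested genes. The list's median change was 0.54, at -0.22 in unstimulated and 0.61 in stimulated cells, and 0.11 with median centring and 0.19 with cyclic loess. Not tested, for being too dim, were Nog, Msx2, Atoh8 and Smad6. Id1, an inhibitor of E protein transcription factors, was at 6.90 and 6.12 in control cells, 5.21 and 4.07 with dorsomorphin, 7.91 and 7.88 in stimulated cells, and 4.95 and 5.82 in stimulated cells with dorsomorphin. It was dim, so that it was at least 2.45-fold lower in unstimulated cells, with both dorsomorphin arrays under the floor, and 2.51 log2 units lower in stimulated cells (adjusted p over both states = 0.0119).

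Id3, a relative of Id1 with the same role, was at 9.22 and 9.10 in control cells, 5.99 and 6.69 with dorsomorphin, 8.22 and 8.29 in stimulated cells, and 7.40 and 6.80 in stimulated cells with dorsomorphin. The groups did not overlap in either state, the changes being -2.82 and -1.15, and over both states it fell by 1.99 ± 0.39 (adjusted p = 0.0190). That call ended without either control array, without dorsomorphin replicate 2 or without stimulated with dorsomorphin replicate 2, with adjusted p up to 0.0564. Id2 did not pass (-0.27 ± 0.41, adjusted p = 0.684), at -1.16 in unstimulated and 0.61 in stimulated cells. Smad7, an inhibitory SMAD gene, did not pass either (0.88 ± 0.41, adjusted p = 0.188). The window before the Id3 start, at chr4:136143572-136143821 of GRCm38.p6, plus strand, is shown as that of the brighter fallen Id gene, and holds none of the 5 motifs searched.
Id3: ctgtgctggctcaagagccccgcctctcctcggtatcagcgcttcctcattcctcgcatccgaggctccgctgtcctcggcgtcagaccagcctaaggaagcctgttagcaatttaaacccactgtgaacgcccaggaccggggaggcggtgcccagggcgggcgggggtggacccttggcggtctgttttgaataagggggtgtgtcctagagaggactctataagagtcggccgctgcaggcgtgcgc

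Bambi, which encodes a decoy receptor for BMP and TGF-beta family signals, was at 6.52 and 6.73 in control cells, 7.57 and 8.11 with dorsomorphin, 6.34 and 6.23 in stimulated cells, and 7.65 and 7.69 in stimulated cells with dorsomorphin. All 4 dorsomorphin arrays lay above all 4 DMSO arrays (1.30 ± 0.21, adjusted p = 0.0104). The list of receptors and SMADs of the BMP, activin and TGF-beta pathways had 21 tested genes, Smurf1 among them. Of these 2 rose, 0 fell and 19 did not pass, beside 4.69% higher and 11.4% lower over all tested genes. The list's median was 0.49. Acvr1, which encodes ALK2, itself a target of dorsomorphin, rose by 1.11 ± 0.18, alike in the states (1.07 and 1.14). Smurf1, a ubiquitin ligase gene that removes SMADs, rose by 1.83 ± 0.39, a call that ended without any 1 of 6 arrays (all but control replicate 2 and dorsomorphin replicate 1; adjusted p up to 0.0714). With probe sets averaged per gene, 7 of these genes were called higher, and Acvr1 was not among them.

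Of 14 tested AMPK subunits and upstream kinases, 2 rose, 2 fell and 10 did not pass, beside 4.69% higher and 11.4% lower over all tested genes. With cyclic loess 5 were higher and 1 lower, and on averaged probe sets 1 and 0. Prkag2, which encodes the regulatory subunit gamma 2, was at 9.48 and 9.55 in control cells, 7.09 and 6.09 with dorsomorphin, 9.21 and 9.09 in stimulated cells, and 7.25 and 7.19 in stimulated cells with dorsomorphin. The groups stood clear of each other (-2.43 ± 0.31, adjusted p = 0.00601), and a second probe set fell by 3.03, while the mean over its 4 probe sets was not called. Stk11, which encodes the AMPK activating kinase LKB1, rose by 1.36 ± 0.19 and Cab39, the scaffold gene of LKB1, by 0.87 ± 0.18. Camkk2, another activating kinase gene, fell by 1.19 ± 0.25. The catalytic subunit gene Prkaa1 did not pass (-0.21 ± 0.32, adjusted p = 0.687), and its sign turned with cyclic loess. Calls of Cab39 and Camkk2 ended without control replicate 2, dorsomorphin replicate 2, stimulated replicate 1 or stimulated with dorsomorphin replicate 2, and that of Cab39 also without control replicate 1 (adjusted p up to 0.0676). On the mean of probe sets Stk11 and Camkk2 were not called, and Camkk2 was not with cyclic loess nor Cab39 with median centring.

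Fatty acid oxidation had 0 of 18 members higher and 2 lower, a share of the lower genes near the background, with Etfb, an electron transfer flavoprotein gene, at -1.54 ± 0.21. Cpt1a, which admits long fatty acids to mitochondria, did not pass over both states (-1.23 ± 0.45, adjusted p = 0.107), at -2.20 in unstimulated and -0.27 in stimulated cells. Of 24 mTORC1 genes and regulators, 0 rose and 4 fell, beside 4.69% higher and 11.4% lower over all tested genes. The other 20 did not pass, and the list's median was 0.07. On averaged probe sets 3 were higher and 1 lower, with cyclic loess 0 and 2, and without 1 array 1 to 4 were lower. Mtor, the kinase itself, was at 10.26 and 10.46 in control cells, 8.09 and 7.85 with dorsomorphin, 10.30 and 10.15 in stimulated cells, and 8.0 and 8.27 in stimulated cells with dorsomorphin on its brightest probe set (-2.24 ± 0.20, adjusted p = 0.00297). Another Mtor probe set rose by 1.84, and the mean over its probe sets was not called. The other falls were Tsc2 (-1.84), Rragd (-2.16) and Rraga (-0.80), which regulate mTORC1. None of these 3 calls held without every array: that of Rragd ended without control or dorsomorphin replicate 2 (adjusted p up to 0.0580), that of Tsc2 without any but stimulated replicate 2 and stimulated with dorsomorphin replicate 1 (up to 0.0742), and that of Rraga without any array (up to 0.122).

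**Figure D3:**
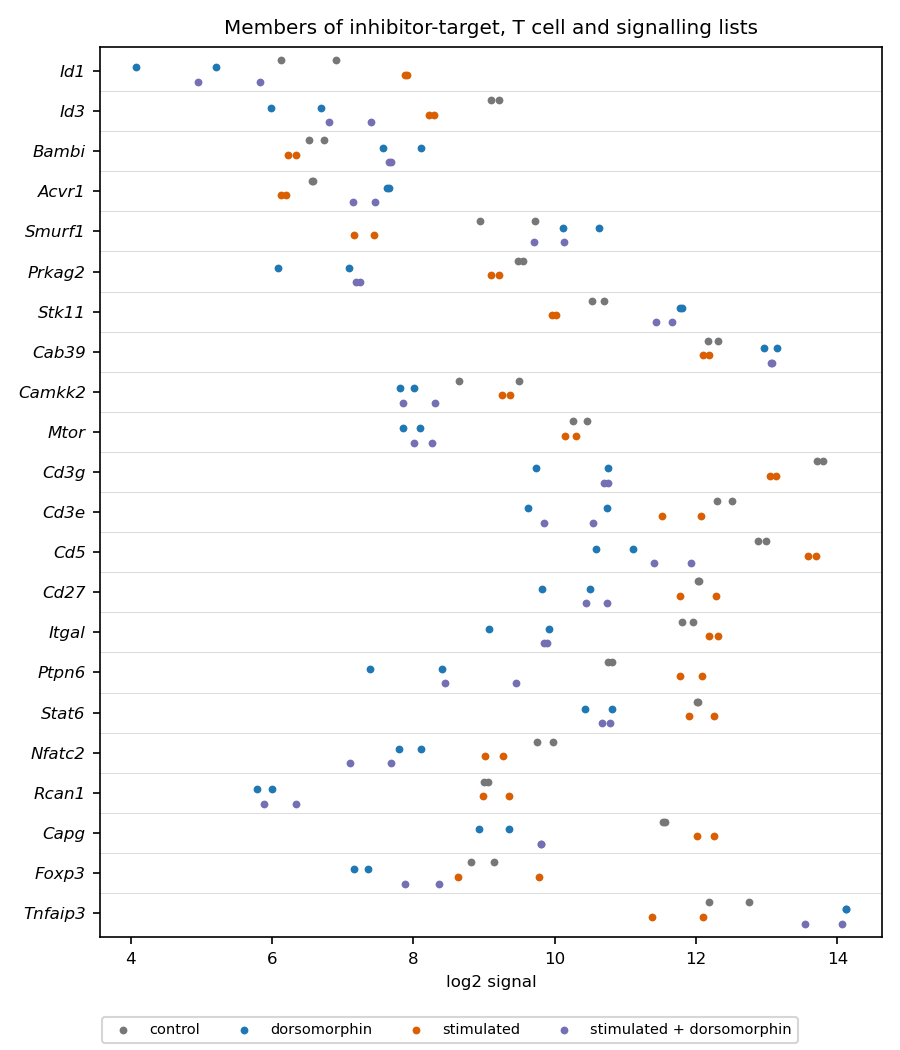
Log2 signal (horizontal axis) on each of the 8 arrays for genes of the BMP, AMPK, T cell receptor and related lists, 1 point per array, coloured by group. Bambi, Acvr1, Smurf1, Stk11, Cab39 and Tnfaip3 lie further right with dorsomorphin (blue, violet) than with DMSO (grey, orange) in each state, and the other genes lie further left, with Id1 the dimmest.

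Of 17 tested genes of the receptor complex and T cell surface, 0 rose, 8 fell and 9 did not pass (median -0.91, against -0.09 over all genes), and 7 to 10 fell with the other scalings or the mean of probe sets. Cd3g, a signalling chain of the CD3 complex, was at 13.79 and 13.71 in control cells, 10.75 and 9.74 with dorsomorphin, 13.05 and 13.14 in stimulated cells, and 10.75 and 10.70 in stimulated cells with dorsomorphin. Every dorsomorphin array was below every DMSO array (-2.94 ± 0.33, adjusted p = 0.00457). Cd3e, another CD3 chain, was at 12.51 and 12.29 in control cells, 10.75 and 9.62 with dorsomorphin, 12.07 and 11.52 in stimulated cells, and 10.54 and 9.85 in stimulated cells with dorsomorphin (-1.91 ± 0.34, adjusted p = 0.0137), though it was not called in stimulated cells alone. Cd247, the zeta chain gene, fell by 1.61, while Cd3d, the remaining CD3 chain, did not pass (-0.67 ± 0.25, adjusted p = 0.110). Cd5, an inhibitory surface receptor gene, fell by 2.03 ± 0.22, the costimulatory receptor gene Cd27 by 1.66 ± 0.26 and the SLAM family gene Ly9 by 1.29 ± 0.22. The other members that fell were Cd2 and Cd6, adhesion receptors, by 0.91 and 0.80. Calls of Cd2 and Cd6 ended without any 1 of 6 and 7 arrays, among them both control arrays (adjusted p up to 0.0751 and 0.129), and the list's count of falls was 6 to 8 without 1 array.

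The window before the Cd3g start is shown as that of the receptor gene with the largest fall. It lies at chr9:44980432-44980681 of GRCm38.p6, minus strand, and holds none of the 5 motifs searched.
Cd3g: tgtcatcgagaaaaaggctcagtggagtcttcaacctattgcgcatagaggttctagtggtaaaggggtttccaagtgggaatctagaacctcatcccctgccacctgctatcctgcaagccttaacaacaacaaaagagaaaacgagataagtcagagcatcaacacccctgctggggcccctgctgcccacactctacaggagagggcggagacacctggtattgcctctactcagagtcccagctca

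Of 23 genes of proximal receptor signalling, 2 rose, 8 fell and 13 did not pass, with a median of -0.58. Ptpn6, which encodes the phosphatase SHP-1, was at 10.76 and 10.81 in control cells, 8.40 and 7.38 with dorsomorphin, 11.77 and 12.09 in stimulated cells, and 8.45 and 9.45 in stimulated cells with dorsomorphin (-2.94 ± 0.32, adjusted p = 0.00428). Lcp2, which encodes the adaptor SLP-76, fell by 1.43 ± 0.25 and the phosphatase gene Ptpn22 by 1.38 ± 0.26. Smaller falls were those of the kinase gene Zap70 (-1.32), the adaptor gene Lat (-0.93), the exchange factor gene Vav1 (-1.07) and the kinase gene Prkcq (-1.05). The adaptor genes Grap2 and Bcl10 rose, by 1.98 and 0.82. Each of these 6 calls ended without any 1 of 6 to 8 arrays, among them control replicate 2, stimulated replicate 1 and stimulated with dorsomorphin replicate 2 (adjusted p up to 0.124). Skap1, an adaptor gene of integrin activation, fell by 3.02 ± 0.59, by 4.35 in unstimulated and 1.70 in stimulated cells, a call that ended without either control array or stimulated replicate 1 (adjusted p up to 0.0522) and on the mean of its probe sets. Without 1 array, 3 to 7 members were lower. The list holds positive and negative regulators of the receptor, and both kinds were among the falls.

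Beside Rcan1, 2 more of the 15 calcineurin and NFAT genes fell, and 1 rose, against 11.4% lower and 4.69% higher over all tested genes. Nfatc2, an NFAT family gene, was at 9.75 and 9.97 in control cells, 8.11 and 7.80 with dorsomorphin, 9.02 and 9.27 in stimulated cells, and 7.10 and 7.68 in stimulated cells with dorsomorphin. It fell by 1.83 ± 0.22 on its brightest probe set, but its change was 0.47 and not called on the mean of its probe sets. Itpr2, a calcium channel gene, fell by 1.97, at -2.95 in unstimulated and -0.98 in stimulated cells. Ppp3cb, a catalytic subunit gene of calcineurin, rose by 0.78. Calls of Itpr2 and Ppp3cb ended without any 1 of 6 and 7 arrays, among them both control arrays (adjusted p up to 0.0803 and 0.0965), and on the mean of probe sets, and that of Ppp3cb also with median centring and cyclic loess. The list's median was -0.29, and 0.06 on the mean of probe sets.

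Regulatory T cell markers had the largest share of falls of all lists: 0 of 13 rose, 8 fell and 5 did not pass, with a median of -1.40. With median centring, cyclic loess and the mean of probe sets, 7, 5 and 7 fell, and without 1 array 3 to 7. The receptor and surface list had the larger share with cyclic loess, at 10 of 17 against 5 of 13. Capg was described above. Gpr83, a receptor gene of these cells, was at 8.74 and 8.07 in control cells, 6.38 and 5.99 with dorsomorphin, 11.22 and 9.67 in stimulated cells, and 6.56 and 7.92 in stimulated cells with dorsomorphin (-2.72 ± 0.48, adjusted p = 0.0134). Foxp3, the factor that defines regulatory T cells, was at 9.14 and 8.82 in control cells, 7.36 and 7.17 with dorsomorphin, 9.77 and 8.63 in stimulated cells, and 7.88 and 8.36 in stimulated cells with dorsomorphin. The nearest stimulated arrays with and without the inhibitor were at 8.36 and 8.63 (-1.40 ± 0.32, adjusted p = 0.0285). Itgae, which encodes an integrin chain also called CD103, changed by -2.0 ± 0.43, at -2.97 in unstimulated and -1.03 in stimulated cells. The folate receptor family gene Izumo1r changed by -1.64. Of the 8 falls, 3 (Il2ra, Tnfrsf4 and Tnfrsf18) are induced on all activated T cells and are also in the list of surface molecules, and Itgae and Capg are also in that of integrins, so that these counts are not separate. The calls of Foxp3, Itgae and Tnfrsf18 ended without any 1 of 6 arrays, among them both control arrays, both dorsomorphin arrays and stimulated replicate 1 (adjusted p up to 0.0824, 0.0684 and 0.0733), those of Izumo1r and Il2ra without any 1 of 6 and 7 arrays, among them both control and both dorsomorphin arrays (up to 0.0875 and 0.124), and that of Tnfrsf4 without stimulated replicate 1 or stimulated with dorsomorphin replicate 2 (up to 0.0572). With cyclic loess, Foxp3, Izumo1r and Il2ra were not called.

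For genes induced by activation, the additive model fits 1 common change to both states. A difference between the states adds to its error, so a gene changed mainly in 1 state can fail to pass. With the mean of the within-state contrasts of the 4-group model, 1313 genes were higher and 2598 lower, instead of 656 and 1597. Of 17 T cell cytokines, 0 rose and 2 fell, near the background share, although the median change in stimulated cells was -4.22 against -0.24 in unstimulated cells. Il2, the T cell growth factor gene, was at 4.93 and 6.34 in control cells, 4.52 and 6.24 with dorsomorphin, 12.65 and 14.18 in stimulated cells, and 4.23 and 6.55 in stimulated cells with dorsomorphin. It did not pass (-4.14 ± 1.60, adjusted p = 0.123). Of 12 chemokines 3 fell, among them Ccl3, an inflammatory chemokine gene, at least 2.23-fold in unstimulated and at least 39.8-fold in stimulated cells (adjusted p = 0.0115). Of 22 activation and costimulatory surface molecules 7 fell and 0 rose. Of 28 activation-induced transcription factors, Ets2 rose and 6 fell, among them Irf4 and Irf8, by 3.52 and 2.79. The calls of Irf4 and Irf8 ended without any 1 of 8 and 7 arrays (adjusted p up to 0.130 and 0.107), and that of Ets2 without either control array or stimulated replicate 1 (up to 0.0573). The counts of falls without 1 array were 0 to 4 for the surface molecules and 0 to 4 for the transcription factors.

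Myc, the growth-promoting transcription factor, was at 10.12 and 9.89 in control cells, 8.35 and 8.42 with dorsomorphin, 13.48 and 13.55 in stimulated cells, and 8.53 and 8.73 in stimulated cells with dorsomorphin. With the inhibitor its level was nearly the same in both states, while with DMSO it was higher after stimulation. It fell by 3.25 ± 0.63 over both states (adjusted p = 0.0178), by 1.62 without and 4.89 with stimulation. The call ended without stimulated replicate 1 or stimulated with dorsomorphin replicate 2 (adjusted p up to 0.0535). A large difference between the states makes the additive call harder to pass. Few such genes could therefore be among those moved in each state, by the way these were chosen. Of the genes moved in each state, Myc was the 1 whose changes differed by the limma test of the difference (-3.26, interval -4.01 to -2.52, adjusted p = 0.0492). Over all tested genes 12 passed that test (0.0858%). That count was 0 with median centring, with the replicate block and without a filter, where Myc was not called either, and up to 2036 with a variance trend. Of 18 genes of the MYC, MAX and MXD network 4 fell and 1 rose. Cad, the first enzyme of pyrimidine synthesis and a MYC target, fell by 3.27 ± 0.58, at -1.87 in unstimulated and -4.67 in stimulated cells. Cdk4, a G1 kinase gene, fell by 2.44 ± 0.42, at -1.46 in unstimulated and -3.42 in stimulated cells. Neither difference between the states was called. Mnt, a MYC antagonist gene, rose by 0.96, a call that ended without any 1 of the 8 arrays (adjusted p up to 0.0822).

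Among NF-kappaB subunits and inhibitors, 1 of 19 rose and 4 fell, beside 4.69% higher and 11.4% lower over all tested genes. Tnfaip3, which encodes the ubiquitin-editing inhibitor A20, was at 12.75 and 12.18 in control cells, 14.13 on both dorsomorphin arrays, 12.10 and 11.38 in stimulated cells, and 14.07 and 13.54 in stimulated cells with dorsomorphin. All 4 dorsomorphin arrays stood above all DMSO arrays (1.86 ± 0.27, adjusted p = 0.00815), and its other probe set rose by 2.42. Nfkbie, an inhibitor gene of NF-kappaB, fell by 2.0 ± 0.29 and Birc3, an apoptosis inhibitor gene of the pathway, by 1.12 ± 0.20, though Birc3 was not called on the mean of its probe sets. The kinase gene Ikbke fell by 3.23 ± 0.67, by 4.89 in unstimulated and 1.57 in stimulated cells, a call that ended without control replicate 1 or 2, dorsomorphin replicate 1 or 2, or stimulated replicate 1 (adjusted p up to 0.0591).

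Tnfaip3 has 2 listed start sites, at chr10:19011964-19012213 and chr10:19015411-19015660 on the minus strand of GRCm38.p6, and both windows are shown as those of the negative regulator that rose.
Tnfaip3, first window: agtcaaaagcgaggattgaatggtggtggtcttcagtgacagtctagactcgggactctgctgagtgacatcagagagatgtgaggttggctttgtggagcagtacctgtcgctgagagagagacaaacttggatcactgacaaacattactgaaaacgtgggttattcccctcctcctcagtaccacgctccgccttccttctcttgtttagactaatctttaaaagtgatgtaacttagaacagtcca
Tnfaip3, second window: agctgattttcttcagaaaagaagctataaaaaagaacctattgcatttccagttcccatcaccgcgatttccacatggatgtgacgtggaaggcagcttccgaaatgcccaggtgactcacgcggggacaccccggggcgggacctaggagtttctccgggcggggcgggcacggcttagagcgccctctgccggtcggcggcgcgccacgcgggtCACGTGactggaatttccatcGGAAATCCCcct
The second window holds CACGTG at position -33 and, read on the opposite strand, GGGATTTCC at -12. GGGATTTCC was added to the search after this window had been read, so its match here is by choice.

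The motifs were searched on both strands in all RefSeq windows of the tested genes, from 250 bases before to 50 bases after each start, and the motifs and the windows shown were chosen after the expression values were known. TGACGTCA was in 2.70% of 14276 windows, 4.33% of the 670 windows of genes higher in each state and 3.65% of the 1699 windows of genes lower in each state. CACGTG was in 9.21%, 8.66% and 11.4%. GGCGCC, a SMAD-binding sequence of Id promoters, was in 19.2%, 22.8% and 17.7%, and CCGGAAGT, an ETS site, in 6.98%, 9.70% and 9.42%. GGGATTTCC was in 0.392%, 0.597% and 0.706%. The median G+C content of the windows was 59.7% over all tested genes, 63.0% for the higher and 60% for the lower genes, and the genes differed in level too, with medians of log2 8.16, 10.6 and 8.49. These shares are descriptions, and no difference among them was tested.

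Cytokine receptor and SOCS genes had 6 of 23 members lower and 2 higher, beside 11.4% lower and 4.69% higher over all tested genes. Tyk2, a kinase gene of interferon and interleukin-12 receptors, fell by 2.18 ± 0.35. Il12rb1, a subunit gene of the interleukin-12 receptor, was at least 1.90-fold lower in unstimulated cells, where both dorsomorphin arrays were under the floor, and 3.41 log2 units lower in stimulated cells (adjusted p over both states = 0.0140). The interferon receptor genes Ifnar2 and Ifngr2 rose, by 1.85 and 1.83, but on the mean of its probe sets the change of Ifnar2 was -0.15 and not called, and neither was Tyk2. The call of Ifngr2 ended without control replicate 2, stimulated replicate 1 or either array of stimulated cells with dorsomorphin (adjusted p up to 0.0679), and the list had 2 to 6 lower without 1 array. Stat6, which carries interleukin-4 signals, was at 12.02 and 12.03 in control cells, 10.81 and 10.42 with dorsomorphin, 12.26 and 11.91 in stimulated cells, and 10.78 and 10.67 in stimulated cells with dorsomorphin (-1.38 ± 0.20, alike in the states). Dusp2, a MAP kinase phosphatase gene, fell by 2.13 ± 0.30, while Dusp10, another, rose by 2.16 ± 0.47, a call that ended without control replicate 2, stimulated replicate 1 or either array of stimulated cells with dorsomorphin (adjusted p up to 0.0710).

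Adhesion and survival genes were among the falls too, beside 11.4% lower and 4.69% higher over all tested genes. Of 27 integrins and actin regulators 7 fell and 0 rose, with a median of -0.05 that was near that of all genes. The falls numbered 3 to 8 without 1 array, being 4, 3, 4 and 4 without control replicate 1, control replicate 2, stimulated replicate 1 and stimulated with dorsomorphin replicate 2. Itgal, the alpha chain gene of the integrin LFA-1, was at 11.80 and 11.96 in control cells, 9.92 and 9.07 with dorsomorphin, 12.31 and 12.19 in stimulated cells, and 9.84 and 9.90 in stimulated cells with dorsomorphin (-2.39 ± 0.24, adjusted p = 0.00364). Its partner Itgb2 fell by 1.55 ± 0.29, a call that ended without control replicate 2 (adjusted p = 0.0515), and the actin regulator genes Was and Dock2 by 1.37 and 2.07. The calls of Was and Dock2 ended without either control array, stimulated replicate 1 or stimulated with dorsomorphin replicate 2, and that of Dock2 also without either dorsomorphin array (adjusted p up to 0.0624 and 0.0983). Of 17 genes of the Bcl2 family and cell death, 3 fell and 2 rose. Bcl2, a survival gene, fell by 2.62 ± 0.43 and Bid, which promotes death, by 2.64 ± 0.46, while Xiap, a caspase inhibitor gene, rose by 1.08 ± 0.19. The other rise was that of Bbc3, which also promotes death, by 1.43 ± 0.36. Its call held in only 1 of the 8 fits with an array left out, and ended without a filter. Bid changed by -1.50 in unstimulated and -3.77 in stimulated cells. The survival-associated GTPase genes Gimap5 and Gimap8 fell by 2.08 ± 0.24 and 2.51 ± 0.40, the 2 of 8 Gimap genes that passed. Gimap8 changed by -3.38 in unstimulated and -1.64 in stimulated cells. Of 23 interferon-stimulated genes 3 fell, near the background, and Ifi204 among them was at least 5.59-fold lower in unstimulated cells, a call that ended without control replicate 2 or stimulated replicate 1 (adjusted p up to 0.0530).

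Metabolic and growth lists held falls and, in fewer cases, rises, beside 11.4% lower and 4.69% higher over all tested genes. Of 22 genes of the amino acid response and one-carbon metabolism, 6 fell, 2 rose and 14 did not pass. With median centring or cyclic loess 4 fell and 1 rose, and without 1 array 2 to 5 fell and 0 to 1 rose, with 2 falls without stimulated replicate 1 or stimulated with dorsomorphin replicate 2. Beside Mthfd1l, the serine synthesis genes Phgdh and Psph fell by 2.06 ± 0.42 and 1.39 ± 0.23, and the glutamine transporter gene Slc1a5 by 2.44 ± 0.53. Ddit3, which encodes the stress factor CHOP, rose by 1.19 and the amino acid transporter gene Slc38a2 by 0.79. The calls of Ddit3 and Slc38a2 ended without any 1 of 4 and 8 arrays, stimulated replicate 1 among them (adjusted p up to 0.0733 and 0.0939). The call of Phgdh ended without stimulated replicate 1 or stimulated with dorsomorphin replicate 2 (adjusted p up to 0.0606), and that of Slc1a5 without any 1 of the 4 stimulated arrays (up to 0.0647) and on the mean of its probe sets. Of 34 ribosome biogenesis genes 4 fell and 0 rose, near the background, although their median was -2.16 in stimulated against -0.02 in unstimulated cells. Polr1a, the large subunit gene of RNA polymerase I, fell by 2.12 ± 0.29, by 1.59 and 2.64 in the states, and was not called on the mean of its probe sets. Of 17 glycolysis genes 4 fell and 0 rose, and each of these calls, Hk2, Slc2a3, Pfkl and Pfkfb3, ended when any 1 of 5 to 7 arrays was left out (adjusted p up to 0.123). Cox5b, a cytochrome oxidase subunit gene, fell by 2.0 ± 0.25, 1 of 4 falls among 24 oxidative phosphorylation genes. With cyclic loess 7 fell, with median centring or averaged probe sets 2, and without control replicate 2 or stimulated with dorsomorphin replicate 2 also 2. The falls of Atp5c1 and Sdha in that list, by 1.49 and 0.88 on the brightest probe sets, became 0.29 and 0.30 on the mean of probe sets and were not called. Of 23 cholesterol and fatty acid synthesis genes 3 rose and 2 fell, with Insig2, which restrains cholesterol synthesis, at 1.59 ± 0.20. Insig2 stayed called without each array, but the calls of Scd2 and Srebf1 (higher) and of Acaca and Hsd17b7 (lower) ended without any 1 of 6 to 8 arrays (adjusted p up to 0.115). The list had 1 higher and 1 lower with median centring, and 2 and 0 with cyclic loess.

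Cell cycle genes were described by phase, beside the shares over all tested genes of 11.4% lower and 4.69% higher. Of 19 G1 cyclins, kinases and inhibitors 4 fell and 0 rose. Ccnd2, the cyclin D2 gene, was at 12.29 and 12.96 in control cells, 10.01 and 9.74 with dorsomorphin, 14.87 and 14.86 in stimulated cells, and 10.26 and 11.54 in stimulated cells with dorsomorphin (-3.36 ± 0.39, adjusted p = 0.00480). Cdk6, a partner of D cyclins, fell by 2.37 ± 0.42, at -1.47 in unstimulated and -3.26 in stimulated cells. The list's median was -0.16, and 0.21 with cyclic loess. Of 29 S, G2 and M phase genes 1 fell and 1 rose. Autophagy and lysosome genes had 3 of 26 members higher and 2 lower. Wipi2, an autophagosome initiation gene, rose by 1.78 ± 0.24, Atg12, a conjugation gene, by 1.65 ± 0.28 and Map1lc3b, a coat protein gene of autophagosomes, by 1.14 ± 0.21, while Atg7, the activating enzyme of Atg12, fell by 1.21 ± 0.18. The call of Map1lc3b ended without stimulated replicate 1 (adjusted p = 0.0522), and those of Wipi2 and Atg7 on the mean of probe sets. Edem1, which sends misfolded proteins to degradation, rose by 1.79 ± 0.19, and Sel1l, of the same pathway, fell by 1.55 ± 0.22 on its brightest probe set, with 0.41 and no call on the mean of its probe sets.

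Lists with at most 1 change included aryl hydrocarbon receptor and NRF2 targets (0 of 17), quiescence and lymph node homing (1 of 25 lower), p53 targets (1 of 17 higher), heat shock chaperones (1 of 16 higher) and erythroid and platelet markers (0 of 9). Quiescence genes changed by a median of 1.74 in stimulated and -0.31 in unstimulated cells, and Slfn2, the 1 that fell, changed by -0.87, a call that ended without any 1 of the 8 arrays (adjusted p up to 0.0775). T cell lineage factors had 3 of 22 lower and 1 higher, near the shares over all tested genes (11.4% and 4.69%). Counts of falls in small lists moved when 1 array was left out: 0 to 5 among interferon-stimulated genes, 1 to 4 in ribosome biogenesis, 2 to 4 in the MYC network, 1 to 3 among chemokines, 0 to 2 among cytokines and 1 to 3 among lineage factors.

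**Figure D4:**
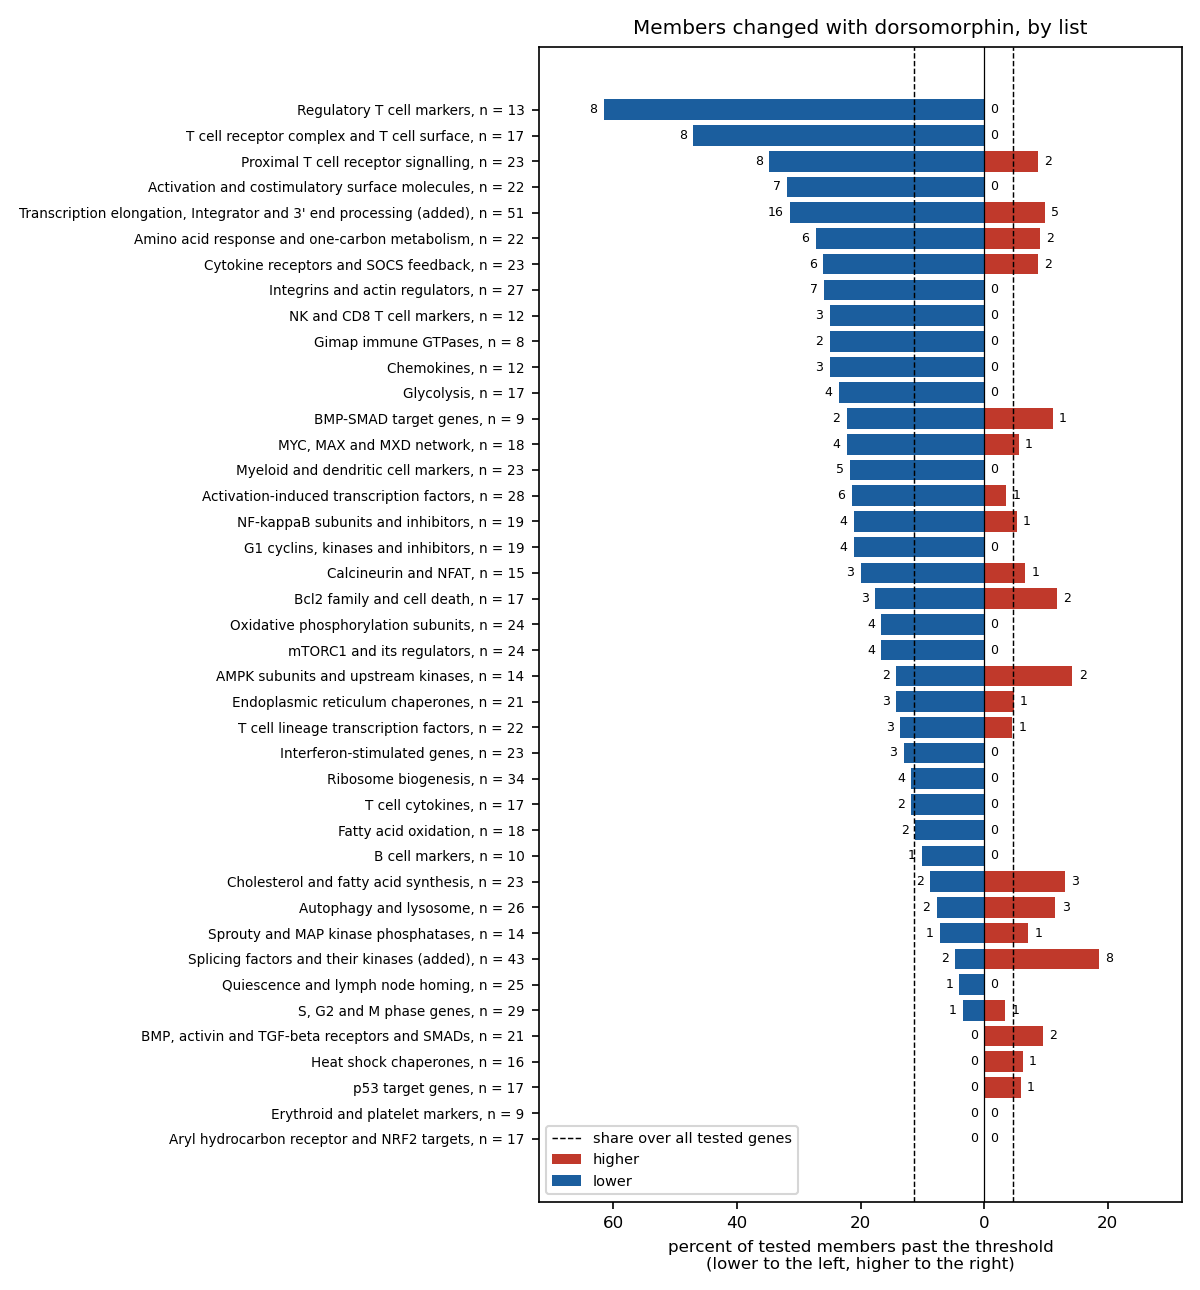
Percent of each list's tested members past the threshold over both states, lower to the left (blue) and higher to the right (red), with the counts at the bars and the shares over all tested genes (11.4% and 4.69%) as dashed lines. Regulatory T cell markers (8 of 13) and the receptor and surface list (8 of 17) have the longest blue bars, and the splicing list composed later (8 of 43) the longest red bar.

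Markers of other cells moved with dorsomorphin as well. Of 23 myeloid and dendritic cell markers 5 fell and 0 rose, with a median of -1.40 in unstimulated and -0.25 in stimulated cells. Without 1 array 2 to 7 fell, with 2 without either control array and 3 without stimulated replicate 1 or stimulated with dorsomorphin replicate 2. Mpeg1 and Cybb, macrophage genes, fell by 2.87 ± 0.53 and 2.28 ± 0.27. The summed signals of this list, given above, were lower with dorsomorphin than in control cells and overlapped between the stimulated groups. Of 12 natural killer and CD8 T cell markers 3 fell, and the summed signal of 13 such markers was 2767 to 3364 in control cells, 1143 to 1337 with dorsomorphin, 4589 to 4648 in stimulated cells, and 1350 to 1582 in stimulated cells with dorsomorphin. Nkg7, a granule membrane gene, fell by 2.22 ± 0.41 and Gzma, a granzyme gene, by 1.11 ± 0.19, and Nkg7 was not called with cyclic loess. B cell markers were dim, with sums of 379 to 915 over all arrays, Cd79a at log2 1.93 to 5.70 and Ms4a1 at 5.16 to 6.84, and 1 of 10 fell. The part of other cells in the falls of T cell and regulatory T cell genes was not tested.

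RNA processing genes were drawn up as 2 further lists after the largest changes had been seen. They hold genes already known to have moved, such as Ssu72, Ints6, Taf15 and Ccnl1, and are given only as counts. Of 43 splicing factors and their kinases, 8 rose and 2 fell. Ccnl1 and Ccnl2, cyclins of splicing kinases, rose by 1.72 ± 0.22 and 1.67 ± 0.24, the kinase gene Clk3 by 1.43 ± 0.24 and Prpf4b by 1.30, while Srsf10 and Hnrnpd fell by 1.43 and 1.45. Calls of Prpf4b, Hnrnpd and Srsf10 ended without stimulated replicate 1 or stimulated with dorsomorphin replicate 2, and that of Srsf10 without any 1 of 4 more (adjusted p up to 0.0561, 0.0542 and 0.0894). Of 51 genes of transcription elongation, Integrator and 3' end processing, 16 fell and 5 rose. Among the falls were 8 Integrator subunits, with Ints3 at -2.55 after Ints6, and the cleavage genes Cpsf3 (-2.67 ± 0.27), Cstf2 (-2.05 ± 0.19) and Cstf3 (-1.44). The 8 are a count, not a share of the subunits tested. The calls of Ints1 and Ints6 held under every alternative. Those of Ints7, Ints9 and Ints10 ended without control replicate 1, among other arrays. With cyclic loess Ints2, Ints9 and Ints10 were not called, nor were Ints5 and Ints10 on the mean of probe sets. Cstf2 and Cstf3 were not called on the mean of their probe sets, and the call of Ints3 ended without either control or stimulated array or stimulated with dorsomorphin replicate 2 (adjusted p up to 0.0702). Hexim1, an inhibitor of the elongation kinase P-TEFb, fell by 2.20 and Ccnt2, a subunit of that kinase, rose by 1.02, a call that ended without any 1 of 6 arrays, among them both stimulated arrays (adjusted p up to 0.0737). With cyclic loess the splicing list had 5 higher and 3 lower, and the elongation list had 13 lower, and 9 lower on averaged probe sets. Without 1 array the splicing list had 4 to 7 higher, and the elongation list 2 to 4 higher and 11 to 15 lower.

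Probe sets of the same gene often disagreed, which bears on every value taken from the brightest. Of 6583 genes with several tested probe sets, 2376 had at least 1 called, and 137 had probe sets called in both directions. In 43 of these 137 genes, the brightest probe set called higher was brighter than the brightest called lower. Among genes higher in each state with other tested probe sets, 307 of 444 had all of them on the same side (69.1%), and 32 had another called the opposite way (7.21%). Among the lower genes these were 531 of 831 (63.9%) and 65 (7.82%). Auh, which encodes an RNA-binding enzyme of leucine breakdown, had 4 probe sets that rose, by 1.83 to 3.18, and 1 that fell by 2.84. Dock8, an exchange factor gene for the GTPase CDC42, rose by 3.0 on its brightest probe set and fell by 2.61 on another. Vti1a, a SNARE gene of vesicle fusion, rose by 2.0 and fell by 3.82 and 3.39. Wdr33, a polyadenylation factor gene, rose on 4 probe sets, the brightest by 1.80, and fell by 2.84 on another.

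For these genes the sign depended on which probe set was read. In the platform table, 52.7% of the brightest probe sets of higher genes were designed from expressed sequence tags, against 41.1% for lower genes and 42.3% for all tested genes. Among the genes called both ways, the share was 70.1% of the higher and 63.4% of the lower probe sets. Those sets include dimmer probe sets. Of all tested probe sets, bright or dim, the share was 49.5%, with 59.1% of the higher and 46.2% of the lower ones. This comparison was made after the disagreement had been seen, and where on the transcripts the probe sets lie is not given in the tables used here.

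**Figure D5:**
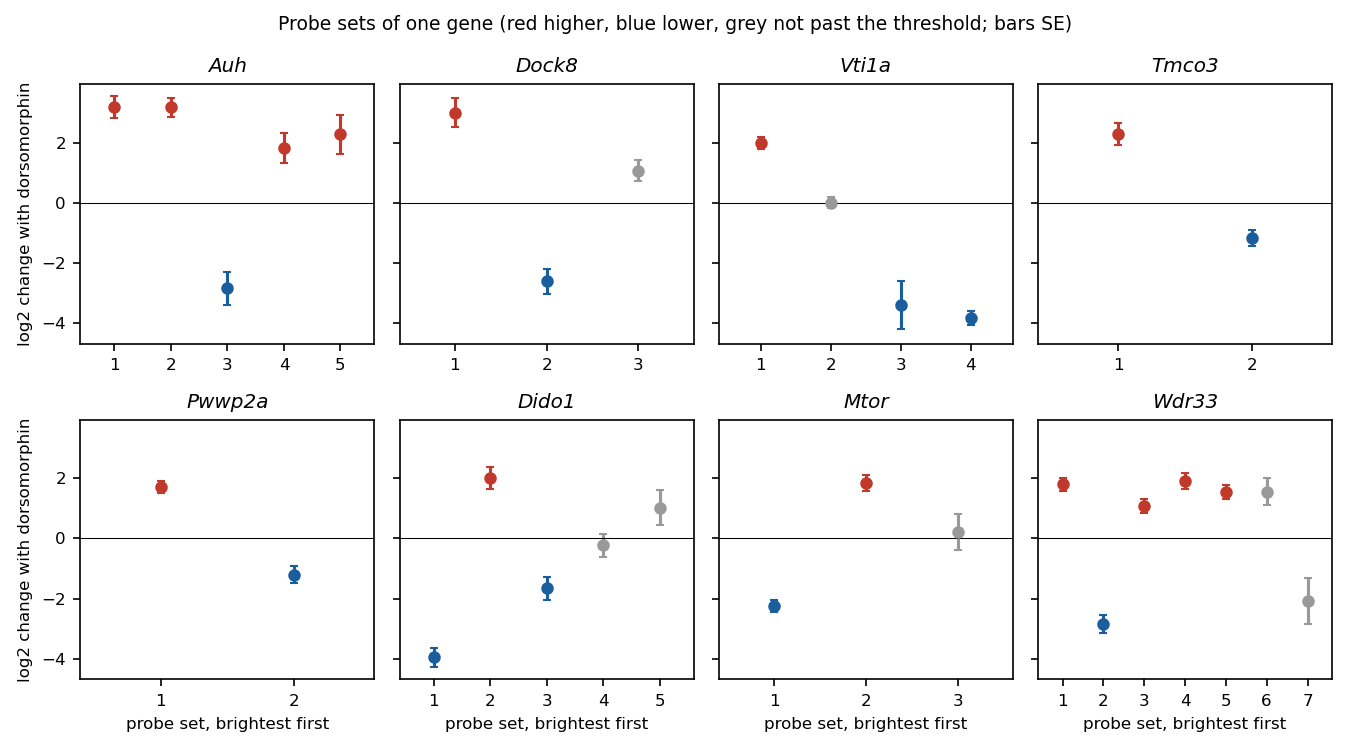
Log2 change with dorsomorphin over both states (vertical axis, bars are SE) for each tested probe set of 8 genes, ordered from brightest to dimmest (horizontal axis), red for higher, blue for lower and grey for not past the threshold. Each gene has at least 1 red and 1 blue probe set, and the brightest is red in Auh, Dock8, Vti1a, Tmco3, Pwwp2a and Wdr33 and blue in Dido1 and Mtor. The 8 genes are picked examples. Over all 137 genes called both ways, the higher probe set was the brighter in 43.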

How the data were processed

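Affymetrix mouse expression arrays of 8 CD4+ T cell samples were used, 2 in each of 4 groups. The deposited intensity values are linear signals, 1 per probe set and array, with a 2% trimmed mean of 500 on every array. RMA and the affy package are named, per the submitters' processing notes, but RMA gives log values, so which step made these signals is not stated there. No scanner files or detection calls were used, and the number of arrays limits the precision.

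The deposited signals were put on a log2 scale. Of 45101 probe sets, 34945 had 1 gene symbol in the platform table, 932 had several, 9160 had none and 64 were controls. Only those with 1 symbol were used, with symbols checked through 34754 Entrez identifiers. Each gene took its brightest probe set over the 8 arrays, and genes over the 40th percentile on at least 2 arrays were tested. limma 3.58.1 in R 4.3.3 fitted stimulation and dorsomorphin as additive terms over all 8 arrays, and a 4-group model gave the changes in each state and their difference, all two-sided with Benjamini-Hochberg adjustment over 13983 genes.

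Named genes are the 14 largest shared rises and falls, up to 4 called genes per list by adjusted p, 4 alike genes per direction and a set of fixed genes. Other members are named after their values were seen. The comparison, its gene lists (39, and 2 added later) and the rules were chosen with earlier results of these data known. On simulated data the test was checked for recovery of known changes. It recovered 25.5% of those of 2-fold, 61.7% of those of 4-fold and 85.8% of those of 16-fold. Of its calls there, 5.44% were false. A gene that did not pass is thus not shown to be unchanged. Alternatives were other scalings, filters, models and an offset, averaged probe sets, a replicate block and leaving out each array. Sequences are from RefSeq tables on GRCm38.p6.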

Additional observations from a re-analysis of the deposited data

Results flagged for a closer look

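The change of Myc with dorsomorphin differed between the activation states. It was -1.62 in unstimulated and -4.89 in stimulated cells, a difference of -3.26 (interval -4.01 to -2.52, limma adjusted p = 0.0492, over 13983 genes). It was not called with median centring, with the replicate block or without a filter, where 0 genes passed by limma (2783, 4477 and 3642 genes had an unadjusted p under 0.05). Groups of 2 arrays are too small for a check of single arrays that stand apart from their group.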

How the results depend on the processing

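Counts of genes higher and lower over both states were 1007 and 1219 with cyclic loess, 1313 and 2598 as the mean of the within-state contrasts, 1014 and 1986 with a robust fit and variance trend, and 351 and 1143 without a filter. Higher in each state were 1005 with cyclic loess, 1097 with the within-state contrasts, 999 with the trend and 351 without a filter. Leaving out 1 array gave 210 to 415 higher and 832 to 1352 lower genes, over both states and in each state alike. The count of genes whose change differed between the states was the least stable: 12 as reported, 204 with cyclic loess, 2036 with the trend, 1867 with a 60th percentile filter, 908 with log2(signal + 16) and 3 on the mean of probe sets. It was 0 with median centring, with the replicate block and without a filter (limma, with 2783, 4477 and 3642 genes at an unadjusted p under 0.05), and 0 to 896 when 1 array was left out. With the replicate number as a block, 588 genes were higher and 1451 lower, and among genes named above Cd6, Hk2, Hsd17b7, Il2ra, Irf4, Irf8, Prkcq, Rraga, Srebf1 and Zap70 were not called. Same-numbered arrays had correlated deviations of 0.0687 to 0.178 over genes, and the labels do not say what a number marks, so the arrays were not treated as pairs, although a spiked-in control split by number. On the mean of probe sets the change turned sign for Atp5c1 (0.29), Gpatch2 (-0.076), Ifnar2 (-0.15), Itgav (0.0031), Nfatc2 (0.47), Sdha (0.30), Sel1l (0.41), Socs7 (0.44) and Vti1a (-1.35). Id2, without 1 array, ranged from -0.57 to 0.013, the latter without dorsomorphin replicate 2, and Prkaa1 at 0.21 with cyclic loess. Of 150 called named genes, 88 stayed called without each array. The cause of these shifts was not tested.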
